A study of Mus musculus with 9 samples.

Results

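Apolipoproteins are the protein parts of plasma lipoproteins, and 10 of their genes were followed here in liver RNA: Apoa1, Apoa2, Apoa4, Apoa5, Apob, Apoc1, Apoc2, Apoc3, Apoe and Apom. They were chosen by name among the 27179 genes of the count table, and all 10 were counted in every library and passed the filter on low counts. The livers came from female mice on a C57BL/6 background that received a high-fat diet from 8 weeks of age on, over 12 weeks. One group, called WT in the labels, was Apoe-/- (n = 5 libraries), and the other, called DKO, was Mif-2-/-Apoe-/- (n = 4 libraries). All 9 libraries therefore carry the Apoe knockout, and the genotypes differ in the global deletion of Mif-2, which is the gene Ddt in the count table. MIF-2 is a cytokine of the macrophage migration inhibitory factor family. Each library was made from RNA of several pooled frozen liver sections, which the study describes as fixed with paraformaldehyde. The labels do not say whether libraries of a group came from separate mice, so that the p-values measure the spread between these libraries.

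The liver makes most circulating apolipoproteins. ApoB is the scaffold of very-low-density lipoprotein (VLDL) and stays with the particle as it turns into LDL, whereas apoA-I and apoA-II form the core proteins of high-density lipoprotein (HDL). The small exchangeable apolipoproteins move between particles: apoC-II activates lipoprotein lipase, apoC-III and apoC-I slow triglyceride clearance, apoA-V promotes it, apoA-IV is secreted with triglyceride-rich particles, apoM carries sphingosine-1-phosphate on HDL, and apoE brings remnant particles to hepatic receptors. Mice without apoE accumulate remnants in plasma and develop atherosclerosis, which is why they are used as a model.

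Most of the 10 genes lie in clusters on 2 chromosomes. Coordinates are from the GENCODE annotation of GRCm38. On chromosome 9, Apoa1 (chr9:46228580-46230466, plus strand), Apoc3 (chr9:46232933-46235636, minus strand), Apoa4 (chr9:46240696-46243459, plus strand) and Apoa5 (chr9:46268633-46271919, plus strand) are neighbours. On chromosome 7, Apoc2 (chr7:19671579-19677941), Apoc1 (chr7:19689481-19692660) and Apoe (chr7:19696109-19699188) are read from the minus strand, with Apoc4 between Apoc2 and Apoc1. Apoa2 (chr1:171225054-171226379, plus strand), Apob (chr12:7977648-8016835, plus strand) and Apom (chr17:35128997-35132050, minus strand) are on their own.

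Since the neighbours Apoa1, Apoa4 and Apoa5 differed in how their levels moved, and Apoc2 was the chromosome 7 gene with the most negative fold change, the sequences just upstream of these 4 genes are shown. They are RefSeq promoter sequences (GRCm38.p6) of up to 250 bases before the transcription start, cut where the GENCODE gene begins earlier. RefSeq sequences were matched for 8 of the 10 genes. They are written 5′ to 3′ on the strand of the gene, and capitals mark a matched motif. The windows are chr9:46228380-46228579 for Apoa1 (plus strand), chr9:46240594-46240695 for Apoa4 (plus strand), chr9:46268358-46268607 for Apoa5 (plus strand) and chr7:19677942-19678191 for Apoc2 (minus strand).
Apoa1: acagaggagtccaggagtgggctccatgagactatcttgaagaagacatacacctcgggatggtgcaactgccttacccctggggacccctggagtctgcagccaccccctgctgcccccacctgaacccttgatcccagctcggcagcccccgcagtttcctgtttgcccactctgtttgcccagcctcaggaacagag
Apoa4: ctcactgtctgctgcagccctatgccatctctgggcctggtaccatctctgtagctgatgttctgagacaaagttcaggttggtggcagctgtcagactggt
Apoa5: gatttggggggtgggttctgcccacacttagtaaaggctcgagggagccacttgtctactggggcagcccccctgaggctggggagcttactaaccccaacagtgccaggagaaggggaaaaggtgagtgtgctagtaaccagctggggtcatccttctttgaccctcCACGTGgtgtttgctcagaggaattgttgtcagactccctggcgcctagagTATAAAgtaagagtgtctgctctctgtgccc
Apoc2: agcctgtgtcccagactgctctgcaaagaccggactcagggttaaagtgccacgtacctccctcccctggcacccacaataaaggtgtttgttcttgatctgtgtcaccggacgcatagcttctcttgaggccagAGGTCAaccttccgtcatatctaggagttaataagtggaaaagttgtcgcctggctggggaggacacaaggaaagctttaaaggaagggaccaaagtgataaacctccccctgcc
The motifs searched, on both strands, were TATAAA (known as the TATA box), AGGTCA (nuclear receptor site), CAAAGTCCA (HNF4 core), TGACGT (cAMP response element type), TTGCGCAA (C/EBP), CACGTG (E-box) and TCACNCCAC (SREBP). Counted back from the base before the start, Apoa5 held CACGTG from position -82 and TATAAA from position -31, and Apoc2 held AGGTCA from position -115. RefSeq gives Apoa5 another start, with the window chr9:46268383-46268632, from which the same motifs lie at -107 and -56. The marked motifs do not overlap each other. Among 32851 promoter windows of 250 bases, 12.4% held TATAAA, 14.0% AGGTCA and 6.02% CACGTG. The windows of Apoa1 and Apoa4 held none of the 7 motifs, which says only that these letters are absent there.

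Total counts ranged from 2318148 to 10764182 per library. Ddt, the targeted gene, was at 181 to 833 CPM (counts divided by the library's total count and multiplied by 1000000, with totals scaled by the trimmed mean of M-values, TMM) in Apoe-/- and at 1.97 to 4.20 CPM in Mif-2-/-Apoe-/- libraries, so the labels were met in all 9. The tissue label was met too: on the scale of CPM per kilobase of exon, Alb stood at 19054 and Ttr at 9568 on average. However, the libraries differed in their share of abundant hepatocyte transcripts. The summed CPM of 8 hepatocyte markers was 87711, 97905, 92145, 124544 and 36535 in Apoe-/- replicates 1 to 5 and 34557, 97978, 27692 and 41435 in Mif-2-/-Apoe-/- replicates 1 to 4. Apoe-/- replicate 5 thus resembled the low libraries of the other genotype, and Mif-2-/-Apoe-/- replicate 2 the high ones of Apoe-/-. All 8 markers had negative fold changes, none was called by edgeR, and Trf was called by DESeq2. Of the markers of cholangiocytes, sinusoidal endothelium, stellate cells and red blood cells, neither test called any. Alb, Ttr and Trf held most of the hepatocyte marker sum, and so of the marker scaling used below. In Mif-2-/-Apoe-/- replicate 1 they had 152936, 31146 and 27395 counts, and Cyp2e1 was next with 4342. Their log2 fold changes were -0.61, -0.92 and -1.46. The other hepatocyte markers had -0.96 (Fgb), -0.86 (Cyp2e1), -0.28 (Ass1), -0.16 (Hnf4a) and -0.06 (Cps1). In bulk liver RNA, fewer hepatocytes, less RNA per hepatocyte and lower levels of these abundant transcripts alone cannot be told apart.

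Together the 10 genes took 6.55 to 11.8% of all counts in Apoe-/- and 6.09 to 12.9% in Mif-2-/-Apoe-/- libraries, with means of 10.1% ± 2.11 (SD, n = 5) and 8.88% ± 2.92 (SD, n = 4). Apoa1, Apoa2, Apoc1 and Apoc3 were among the 10 most abundant transcripts of the table. Per kilobase of exon, the mean level over the 9 libraries was 49167 ± 29159 CPM for Apoa2, 35313 ± 12650 for Apoa1, 16887 ± 8053 for Apoc1 and 9969 ± 5090 for Apoc3 (SD). Apoa5 and Apoc2 came next with 1740 ± 344 and 1648 ± 1011 CPM per kilobase, followed by Apoa4 with 892 ± 720, Apoe with 563 ± 177 and Apom with 210 ± 111. The order of some neighbours differed between the genotypes. Per kilobase, Apoa4 was above Apoe in 5 of 5 Apoe-/- and 0 of 4 Mif-2-/-Apoe-/- libraries, and Apoa5 was above Apoc2 in 1 of 5 and 4 of 4. Apoa2 exceeded Apoa1 in 5 of 5 and 2 of 4. No test was made of these orders. The length used for Apoe, 2138 bases, is that of the intact gene. How long the transcript of the knockout allele is was not known here, so the place of Apoe in the order is uncertain. Apob was far below the rest, with 2.54 ± 0.775 CPM per kilobase, and ranked 7094 of 16039 genes on this scale. Apob has 13934 bases of merged exons, and the RNA was captured by its poly(A) tail. The sections had also been fixed. Whether fixation, capture or library preparation bears on the level of so long a transcript, or on the order per kilobase, was not tested.

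**Figure D1:**
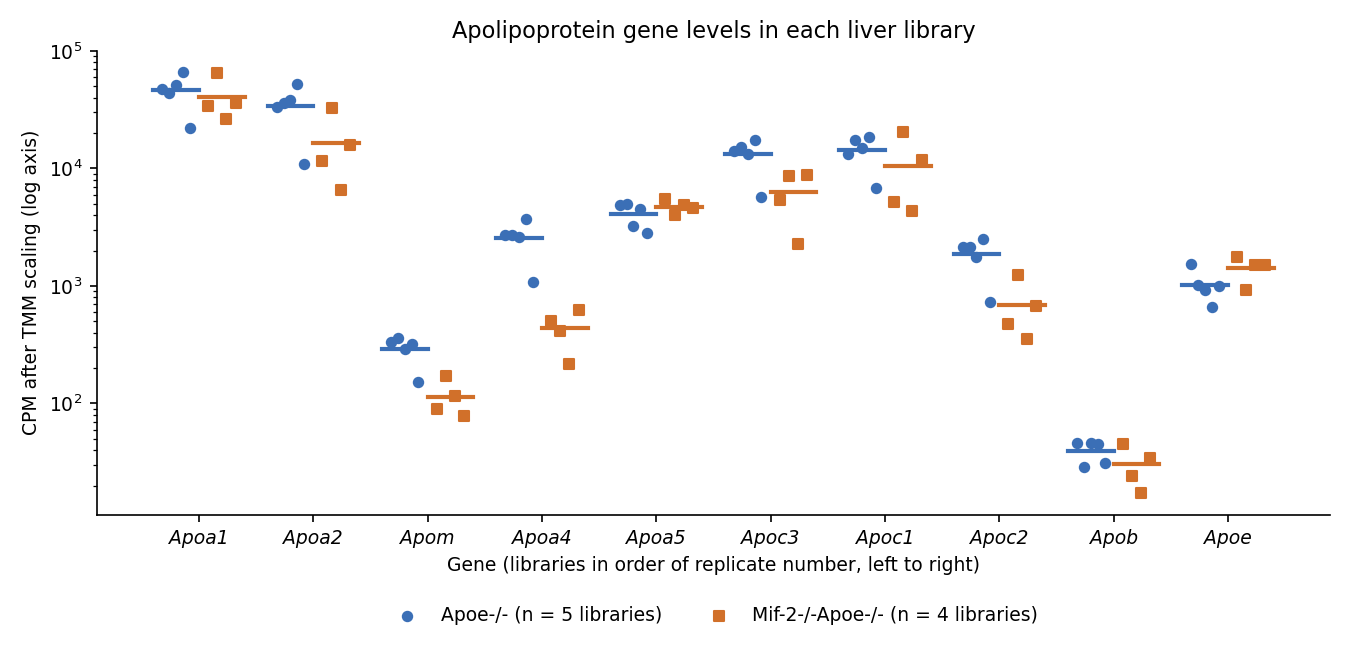
Level of each apolipoprotein gene in CPM after TMM scaling (log axis) in each library, with Apoe-/- as circles and Mif-2-/-Apoe-/- as squares and the group mean as a line; genes are ordered by role. Apoa4 is the gene whose genotypes do not overlap, with 1072 to 3702 CPM in Apoe-/- and 218 to 628 CPM in Mif-2-/-Apoe-/- libraries, while the other 9 overlap.

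Apoa4 was the apolipoprotein gene that both edgeR and DESeq2 called lower in Mif-2-/-Apoe-/- livers. It was at 2707, 2707, 2628, 3702 and 1072 CPM in Apoe-/- and at 504, 411, 218 and 628 CPM in Mif-2-/-Apoe-/- replicates. Every Mif-2-/-Apoe-/- library was below every Apoe-/- library, and the lowest Apoe-/- value was again that of replicate 5. The means were 2563 ± 944 (SD, n = 5) and 440 ± 173 CPM (SD, n = 4), a 5.82-fold lower level with a log2 fold change of -2.54 ± 0.43 (SE). The adjusted p was 0.0284 by edgeR's quasi-likelihood test and 6.17e-08 by DESeq2, each with Benjamini-Hochberg adjustment over all genes. The two-sided exact permutation test over all arrangements of the 9 libraries gave p = 0.0159.

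Apoa4 thus was 1 of 10 members called lower by edgeR, whereas 0.0771% of the 16870 genes tested were. It was also the 1 member whose CPM did not overlap between the genotypes in that direction, against 2.59% of all genes. The members were chosen with earlier results of these data known, so these shares do not describe the family as a group. Mif-2-/-Apoe-/- replicate 2, with a marker sum within the range of Apoe-/- replicates 1 to 4, had 411 CPM of Apoa4, and those 4 libraries had 2628 or more. Apoe-/- replicate 5, with a marker sum within the range of Mif-2-/-Apoe-/- replicates 1, 3 and 4, had 1072 CPM, and those 3 libraries had 628 or less. Counted per 1000 Alb counts of the same library, Apoa4 was at 46.3 to 52.0 in Apoe-/- and at 6.01 to 22.9 in Mif-2-/-Apoe-/- libraries. The narrow range in Apoe-/- includes replicate 5, with 52.0. Both the range and the separation depend on Alb as the reference. Apoe-/- replicate 5 had 7130 Apoa4 and 65674 Trf counts, and Mif-2-/-Apoe-/- replicate 1 had 3239 and 27395. Per Trf count, Apoa4 was thus higher in the latter, and the genotypes overlapped.

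Apoa4 is also made in the small intestine. Of 7 intestinal markers, Cdx1, Cdx2, Sis and Muc2 were counted in too few libraries of a genotype to be tested. The summed CPM of the 3 tested markers, Vil1, Lct and Fabp2, was 32.6 to 123 in Apoe-/- and 18.1 to 73.6 in Mif-2-/-Apoe-/- libraries. Fabp2 held most of this sum. Outside it, Muc2 had 56 counts in Apoe-/- replicate 1. Mif-2-/-Apoe-/- replicate 4 had 52 counts of Muc2, 40 of Cdx2 and 42 of Lct. DESeq2 called Fabp2 lower (log2 fold change -1.66) and Vil1 higher (3.76), and edgeR neither. The exons of Apoa4 overlap those of Gm10680 and Gm47528 on the opposite strand, and since the library kit does not mark strand, their reads cannot be told apart. The same limit holds for Apoa5, whose exons overlap Gm47544 on the opposite strand, and for Apoc2, whose exons overlap Gm44805 on its own strand.

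The edgeR call of Apoa4 depended on which library was left out. With 1 library left out it held without Apoe-/- replicate 5 or Mif-2-/-Apoe-/- replicate 2 and was lost without any of the other 7 (adjusted p = 0.0567 to 0.0848), while the log2 fold change stayed between -2.73 and -2.29; by DESeq2 it held in all 9 such fits. With library sizes set to the hepatocyte markers, which moved the median of all genes from 0.10 to 0.94, the log2 fold change of Apoa4 was -1.48 and its edgeR adjusted p 0.175.

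**Figure D2:**
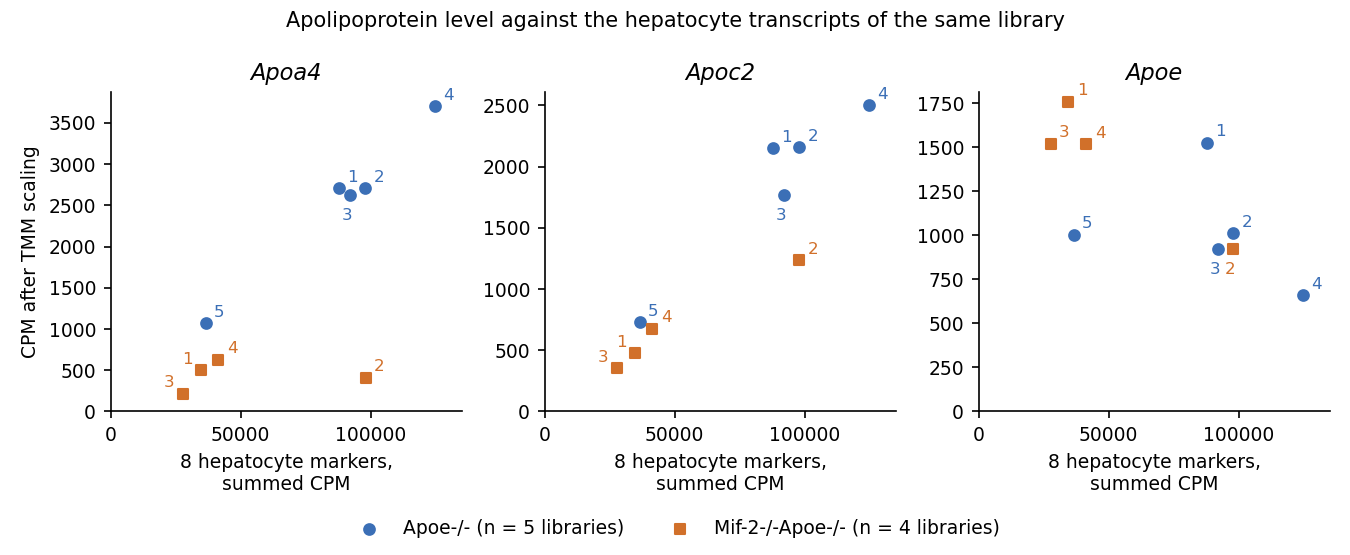
Level of Apoa4, Apoc2 and Apoe (CPM after TMM scaling) against the summed CPM of 8 hepatocyte markers in the same library; circles are Apoe-/-, squares Mif-2-/-Apoe-/-, and the digits are replicate numbers. Apoa4 in Mif-2-/-Apoe-/- replicate 2 (411 CPM) lies far below the Apoe-/- libraries of similar marker level, whereas Apoe is lowest in Apoe-/- replicate 4 (659 CPM), the library with the highest marker sum.

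The other genes of the chromosome 9 cluster did not share the size of this difference. Apoa5, whose product promotes lipolysis at the vessel wall, was at 4897, 5023, 3271, 4538 and 2815 CPM in Apoe-/- and at 5498, 4022, 4853 and 4586 CPM in Mif-2-/-Apoe-/- replicates. It was the steadiest of the 10 genes, with a 1.95-fold range over all 9 libraries, and its log2 fold change was 0.21 ± 0.32 (edgeR adjusted p = 0.808). Apoc3, which encodes an inhibitor of triglyceride clearance, was at 14177, 15152, 13370, 17458 and 5771 CPM in Apoe-/- and at 5381, 8595, 2279 and 8792 CPM in Mif-2-/-Apoe-/- replicates. Apoe-/- replicate 5 fell within the range of the other genotype. The log2 fold change of Apoc3, -1.07 ± 0.45, passed neither test (adjusted p = 0.273 in edgeR, 0.152 in DESeq2). With the hepatocyte markers as scale it was -0.18 (edgeR adjusted p = 0.753).

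Apoa1, the main protein of HDL, was at 47246, 44155, 51214, 66471 and 22018 CPM in Apoe-/- and at 34121, 64957, 26443 and 36192 CPM in Mif-2-/-Apoe-/- replicates. The groups overlapped widely, and Mif-2-/-Apoe-/- replicate 2 was second only to Apoe-/- replicate 4. Its log2 fold change was -0.19 ± 0.43 with TMM scaling (edgeR adjusted p = 0.875) and 0.70 when libraries were scaled to the hepatocyte markers.

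Ratios between neighbouring genes within a library do not depend on how libraries are scaled. For each Apoa4 count there were 17.5, 16.3, 19.5, 18.0 and 20.5 Apoa1 counts in Apoe-/- and 67.7, 158, 121 and 57.6 in Mif-2-/-Apoe-/- replicates. The ratio was nearly constant in Apoe-/- livers, replicate 5 included, with a mean log2 ratio of 4.19 ± 0.13 (SD, n = 5), and it was higher in each Mif-2-/-Apoe-/- liver, with a mean of 6.54 ± 0.69 (SD, n = 4). The difference of 2.35 on the log2 scale gave p = 0.0079 in a two-sided exact permutation test, the smallest that 5 against 4 libraries allow, and 0.0143 after Benjamini-Hochberg adjustment over 9 pairs.

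The log2 ratio of Apoa4 to Apoc3 behaved alike, with -2.38 ± 0.09 (SD, n = 5) in Apoe-/- and -3.75 ± 0.47 (SD, n = 4) in Mif-2-/-Apoe-/- livers. That of Apoa4 to Apoa5 went from -0.75 ± 0.46 to -3.52 ± 0.68. Apoa1 counts rose relative to Apoc3, from a log2 ratio of 1.82 ± 0.17 to 2.79 ± 0.62. These 3 pairs did not overlap between the genotypes and had the same exact p of 0.0079 (adjusted 0.0143). Apoa5 rose relative to Apoc3 by 1.40 (exact p = 0.0159, adjusted 0.0238), with an overlap between the groups. Apoa1 and Apoa5 kept log2 ratios of 3.44 ± 0.45 and 3.02 ± 0.70, whose difference of -0.42 did not pass (exact p = 0.310, adjusted 0.310). The 6 pairs share 4 genes and are not independent of each other, and the pairs with Apoa4 use the same counts as its call. Ratios of other gene pairs were not tested for comparison. With 1 of Apoe-/- replicates 1 to 4 left out, none of the 9 pairs of both clusters passed, the lowest adjusted p of the exact test being 0.0514. Without Apoe-/- replicate 5, 7 pairs passed, as in all 9 libraries, and without a Mif-2-/-Apoe-/- library 5 to 7 did. The differences kept their sign in each of these fits.

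**Figure D3:**
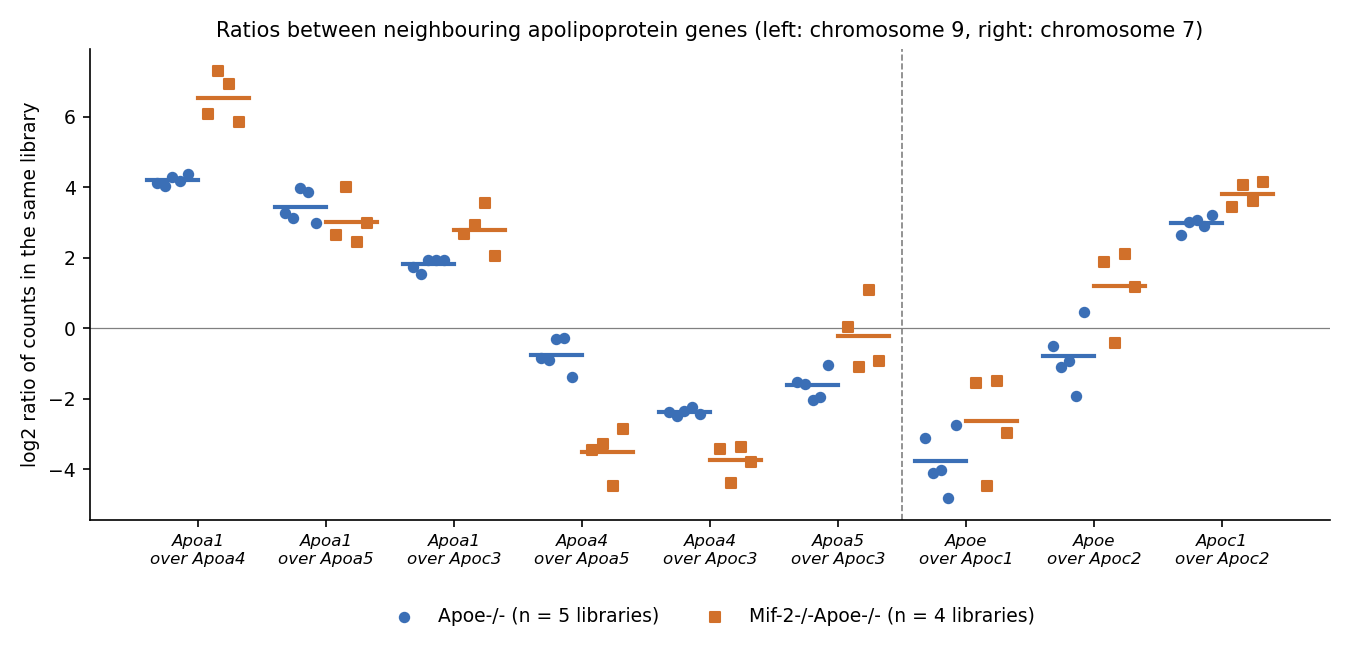
log2 ratio of the counts of neighbouring apolipoprotein genes in the same library, for the 6 pairs on chromosome 9 (left of the dashed line) and the 3 on chromosome 7 (right); circles are Apoe-/-, squares Mif-2-/-Apoe-/-, lines the group means. The 5 Apoe-/- libraries lie between 4.03 and 4.36 for Apoa1 over Apoa4 and the 4 Mif-2-/-Apoe-/- libraries between 5.85 and 7.30.

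The mixture of apolipoprotein transcripts differed accordingly. Of the counts of the 10 genes, Apoa4 made up 2.07 to 2.26% in Apoe-/- and 0.309 to 0.783% in Mif-2-/-Apoe-/- livers. Apoc2 made up 1.39 to 1.80% against 0.736 to 0.926%, and Apoa1 35.5 to 42.9% against 45.1 to 56.7%. For these genes the shares of the genotypes did not overlap, whereas they did for the other members. How many of all genes would show no overlap on this scale was not worked out. Shares add up to a fixed total, so that a larger share of Apoa1 is in part the counterpart of smaller shares of other genes.

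The HDL genes Apoa2 and Apom both had negative fold changes, and Apom was called by 1 of the tests. Apom, whose protein is the sphingosine-1-phosphate carrier, was at 331, 360, 291, 319 and 153 CPM in Apoe-/- and at 89.3, 172, 117 and 78.8 CPM in Mif-2-/-Apoe-/- replicates. Only Apoe-/- replicate 5 and Mif-2-/-Apoe-/- replicate 2 crossed, with 153 and 172 CPM. The log2 fold change was -1.35 ± 0.35, which passed by DESeq2 (adjusted p = 0.0134) and not by edgeR (adjusted p = 0.135). With the hepatocyte markers as scale it was -0.41 (edgeR adjusted p = 0.522). Apoa2, the second structural protein of HDL, was at 33294, 36214, 38337, 52384 and 10987 CPM against 11585, 32450, 6527 and 15847 CPM. Its log2 fold change of -1.04 ± 0.53 did not pass by either test (adjusted p = 0.353 by edgeR, 0.269 by DESeq2). With the hepatocyte markers as scale it was -0.23 (edgeR adjusted p = 0.529). The low values were those of the libraries with a low hepatocyte marker sum in both genotypes. Their part in the difference was not tested.

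Apoc2 and Apoc1, which lie near each other on chromosome 7, did not move alike. Apoc2, the activator of lipoprotein lipase, was at 2153, 2160, 1767, 2502 and 732 CPM in Apoe-/- and at 475, 1234, 357 and 677 CPM in Mif-2-/-Apoe-/- replicates. Its log2 fold change of -1.44 ± 0.44 passed by DESeq2 (adjusted p = 0.0402) and not by edgeR (adjusted p = 0.159). With Apoa4 and Apom, 3 of the 10 genes were called lower by DESeq2, which called 2.29% of all genes with an adjusted p in that direction. Per 1000 Alb counts, Apoc2 was at 31.7 to 41.3 in Apoe-/- and at 18.0 to 24.7 in Mif-2-/-Apoe-/- livers. On this scale Apoa4 and Apoc2 were the 2 members without overlap, and 3.08% of all genes had none. The outcome depends on the reference gene. Apoe-/- replicate 5 had 4867 Apoc2 and 65674 Trf counts, and Mif-2-/-Apoe-/- replicate 1 had 3057 and 27395. Per Trf count, Apoc2 was thus higher in the latter, and the genotypes overlapped. With library sizes set to the hepatocyte markers, the log2 fold change of Apoc2 was -0.61 (edgeR adjusted p = 0.216).

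Apoc1, an inhibitor of triglyceride clearance, was at 13330, 17543, 14883, 18687 and 6797 CPM in Apoe-/- and at 5146, 20460, 4325 and 11902 CPM in Mif-2-/-Apoe-/- replicates. The highest and the lowest value were both in Mif-2-/-Apoe-/- libraries. Its log2 fold change was -0.45 ± 0.49 with TMM scaling (edgeR adjusted p = 0.709) and 0.27 with the hepatocyte markers as scale. Within a library there were 6.19, 8.12, 8.42, 7.47 and 9.29 Apoc1 counts for each Apoc2 count in Apoe-/- and 10.8, 16.6, 12.1 and 17.6 in Mif-2-/-Apoe-/- replicates. The log2 ratio rose by 0.84 without overlap (two-sided exact permutation p = 0.0079, adjusted over 9 pairs 0.0143).

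The calls of Apoc2 and Apom changed with the libraries left out. By edgeR, both passed without Apoe-/- replicate 5 (adjusted p = 0.0466 and 0.0374) and without Mif-2-/-Apoe-/- replicate 2 (adjusted p = 0.0461 and 0.0425), and neither passed without any of the other 7. By DESeq2, Apoc2 passed only without one of those 2 libraries, with an adjusted p of 0.0858 to 0.158 in the other 7 fits, and Apom passed in 5 of 9 fits, its call being lost without Apoe-/- replicate 1 or 2 or Mif-2-/-Apoe-/- replicate 1 or 4 (adjusted p = 0.0559 to 0.0799).

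Apob was counted at low depth, with 54 to 396 raw counts per library. It was at 45.9, 28.9, 46.1, 44.9 and 31.1 CPM in Apoe-/- and at 45.3, 24.1, 17.1 and 34.6 CPM in Mif-2-/-Apoe-/- replicates. The groups overlapped, and the log2 fold change was -0.38 ± 0.40 with TMM scaling (edgeR adjusted p = 0.702) and 0.57 with the hepatocyte markers as scale. With TMM scaling, the size of the fold change was below its standard error.

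Apoe reads show what the knockout allele, common to both groups, still produces. Raw counts of Apoe were 13159, 8921, 2423, 3812 and 6679 in Apoe-/- and 11304, 2068, 7631 and 8458 in Mif-2-/-Apoe-/- replicates. In CPM this was 1525, 1012, 922, 659 and 1004 against 1758, 922, 1521 and 1518. Apoe transcripts were thus present in every library, at rank 87 among the genes by mean CPM. A count per gene does not tell which exons the reads came from or whether a protein is made, and since all libraries carry the knockout, the values have no intact gene to be set against.

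The Apoe level overlapped between the genotypes, and its log2 fold change of 0.48 ± 0.33 passed neither test (adjusted p = 0.506 in edgeR, 0.253 in DESeq2). Apoe and Apoa5 were the 2 members with positive fold changes. Apoe is also made by macrophages. The summed CPM of 8 macrophage markers was 871 to 2013 in Apoe-/- and 990 to 1339 in Mif-2-/-Apoe-/- libraries, with 7 of 8 fold changes negative, and all 8 markers were detected. DESeq2 called Cd5l of this list lower (log2 fold change -1.30), and edgeR none. Their part in the Apoe level was not tested. Apoe rose relative to Apoc2 by 1.98 on the log2 scale, with an overlap between the groups (two-sided exact permutation p = 0.0317, adjusted 0.0408), and relative to Apoc1 the difference of 1.14 did not pass (exact p = 0.190, adjusted 0.214).

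**Figure D4:**
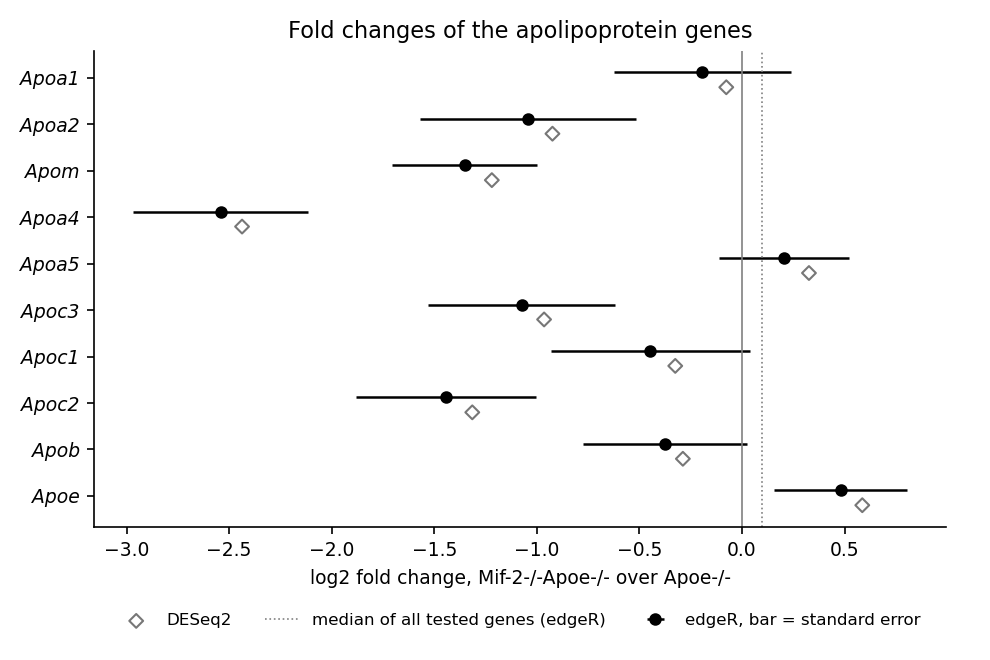
log2 fold change of each apolipoprotein gene, Mif-2-/-Apoe-/- over Apoe-/-, by edgeR (black points, bars are standard errors) and DESeq2 (open diamonds); the dotted line is the median of all tested genes by edgeR, 0.10. Apoa4 lies farthest from it at -2.54; Apoa5 and Apoe are on the positive side, and Apoa1, Apob and Apoc1, drawn here as negative, turn positive when libraries are scaled to hepatocyte markers.

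Over the 10 genes, 8 log2 fold changes were negative and 2 positive with TMM scaling, of which Apoa1, Apob and Apoc1 turned positive with the hepatocyte markers as scale. The median was -0.75, against 0.10 for all 16870 genes tested. At an unadjusted edgeR p under 0.05, 4 of the 10 genes were lower (Apoa4, Apoc2, Apoc3 and Apom), against 7.66% of all genes. None was higher.

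By its centred profile over the 9 libraries, Apoa4 was nearest to Ethe1, a mitochondrial sulphur dioxygenase gene, among 7405 genes of at least 10 CPM. Profiles were not scaled, so the distance also reflects the size of the genotype difference. The root mean square distance of the centred log2 profiles was 0.246. Tubb4b, a tubulin gene, Psmd13, a proteasome subunit gene, Dio1, a thyroid hormone deiodinase gene, and Elovl3, a fatty acid elongase gene, followed at 0.338, 0.345, 0.396 and 0.401. The member nearest to Apoa4 was Apoc2, at 0.683. Because the genes above are the nearest of 7405, no comparison with the few members can be drawn from them. How many genes lay nearer than Apoc2 was not worked out. For Apoe, the nearest profile was that of Gse1 at 0.119, followed by Ankrd54, Ciao3, Scap, which encodes the escort protein of SREBP, and Hgfac, a growth factor activator gene, at 0.198 to 0.213. Among the members, Apoa5 was nearest to Apoe, at 0.399, and Apoa4 farthest, at 1.67.

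Genes that act with the apolipoproteins were followed as a list of 61 in 6 roles. By edgeR, 0 of the 61 were called, against 0.148% of all genes. At an unadjusted p under 0.05, 6 were higher and 17 lower, against 8.08% and 7.66% of all genes, while DESeq2 called 2 higher and 6 lower. DESeq2 called 2.50% of all genes higher and 2.29% lower. The median log2 fold change of the list was -0.16.

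Among 10 genes of assembly and secretion, DESeq2 called 2 lower. Mttp, which loads lipid onto apoB, was at 31.9 to 62.4 CPM in Apoe-/- and 12.0 to 27.2 CPM in Mif-2-/-Apoe-/- livers, without overlap (log2 fold change -1.18 ± 0.40, DESeq2 adjusted p = 0.0438, edgeR 0.182). Surf4, a cargo receptor for lipoproteins leaving the endoplasmic reticulum, was at 136 to 491 CPM against 80.3 to 204 CPM (-1.66 ± 0.42, DESeq2 adjusted p = 0.0116, edgeR 0.133). The secretory genes Sar1b (-1.81) and Mia3 (0.77) passed neither test.

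Among 13 other lipoprotein-borne proteins, the 3 that DESeq2 called were lower. Saa1 and Saa2, acute-phase proteins carried on HDL whose near-identical sequences make their separate counts uncertain, had log2 fold changes of -2.64 ± 0.64 and -2.41 ± 0.53 (DESeq2 adjusted p = 0.00335 and 0.00136, edgeR 0.125 and 0.0982). Clu, also known as apolipoprotein J, was at 912 to 3141 CPM against 530 to 1427 CPM (-1.44 ± 0.42, DESeq2 adjusted p = 0.0369, edgeR 0.154). Apoh (-1.54) and Apoc4 (-0.88), which lies between Apoc2 and Apoc1, did not pass. None of the 6 genes of lipases and their regulators passed either test, with log2 fold changes of 1.68 for Lipg, -0.77 for Angptl8 and -0.89 for Gpihbp1.

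Among 11 genes of receptors, uptake and efflux, the 1 that DESeq2 called was higher. Mylip, a ubiquitin ligase gene, was low, with at most 1.93 CPM in Apoe-/- and 1.97 to 21.4 CPM in Mif-2-/-Apoe-/- livers (3.01 ± 0.85, DESeq2 adjusted p = 0.00273, edgeR 0.148). Its values did not overlap between the genotypes. The receptor gene Lrp1 (0.35) and the sterol transporter gene Abcg5 (-0.02, with a sign that other scalings reversed) passed neither test.

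Of 14 transcriptional regulators, 1 was called by DESeq2. Nr1d1, the circadian repressor REV-ERB alpha, was at 97.4 to 220 CPM in Apoe-/- and at 338 to 403 CPM in Mif-2-/-Apoe-/- livers (1.26 ± 0.30, DESeq2 adjusted p = 0.00014, edgeR 0.125). Time of day at collection is not given in the sources used here. Mlxipl (0.25), Srebf1 (0.24) and Rora (1.80) passed neither test. Rora was at 15.6 CPM in Mif-2-/-Apoe-/- replicate 2 and at most 3.99 CPM in the other libraries of that genotype. Without that replicate its log2 fold change was 0.43. Of 7 genes that neighbour the clusters, Clptm1 next to the chromosome 7 cluster was called lower by DESeq2 (-1.34 ± 0.40, adjusted p = 0.0432, edgeR 0.159), whereas Zpr1 (0.81) and Bud13 (1.02) near Apoa5 and Tomm40 (0.33) near Apoe were not.

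**Figure D5:**
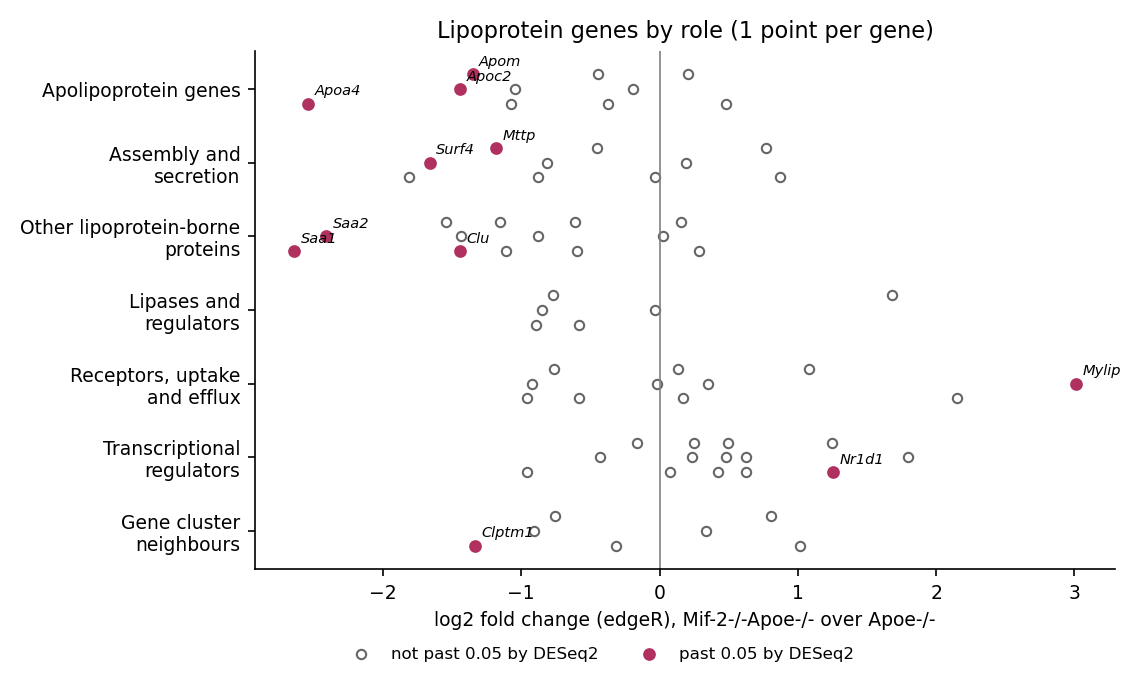
edgeR log2 fold change of the 10 apolipoprotein genes and of 61 genes that act with them, 1 point per gene, grouped by role; filled points passed an adjusted p of 0.05 by DESeq2. Called genes among lipoprotein proteins, assembly and secretion lie on the negative side and the one among receptors on the positive side, from -2.64 for Saa1 to 3.01 for Mylip.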

How the data were processed

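Bulk RNA sequencing was performed by the authors on pooled frozen liver sections that were fixed with paraformaldehyde. RNA was captured on oligo(dT) beads and libraries were made by Smart-seq2, which does not mark strand. Per the submitters' processing notes, reads were handled with FastQC, cutadapt and HISAT2 against mm10; the counting tool is not given in the sources used here. The deposited values are raw read counts of genes, as whole numbers with Entrez identifiers. A second header line was left out, and 25275 of 27179 identifiers were given symbols from RefSeq. Groups follow the genotype labels. The study names 4 mice per group while 5 Apoe-/- libraries were deposited; all were used here.

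The 16870 genes counted at least once in 3 or more libraries of a genotype were tested with edgeR 4.0.16 under R 4.3.3 (quasi-likelihood test, TMM, Benjamini-Hochberg adjustment over all genes tested). The 10 most abundant genes, 4 of which are members, were kept and were excluded in an alternative, after a step that the study's methods describe for RNA of whole liver lysates. Standard errors are the size of the log2 fold change over the square root of F. DESeq2 1.42.0 on the same genes was an alternative and gave no adjusted p for 2559 genes. Ratios use counts plus 0.5 and two-sided exact permutation tests over all arrangements of the libraries. Gene lengths are merged exons of GENCODE. Total counts were 2318148 to 10764182 per library; PCR duplicates carry no molecular identifiers, so counting intervals were not used to compare libraries. The edgeR fit was also run on simulated counts with known changes, whose outcome is not given here. In the real counts edgeR put the common biological coefficient of variation, a measure of spread between libraries of a genotype, at 0.9046. Figures were drawn with matplotlib 3.10.9.

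The members, the lists, the tests and the rule for named genes were chosen with earlier results of these data known. All 10 members were named, with pathway genes past 0.05 by either tool and, per role, the 2 most abundant and the 2 with the largest fold change; for Apoa4 and Apoe, the 5 genes with the nearest centred log2(CPM + 0.5) profile; and Ddt as a label check. Of the pathway list, 3 genes are not reported here and enter none of its counts. Alternatives were other size factors, filters and thresholds, a replicate block and each library left out; DESeq2 with each library left out and counts per 1000 Alb counts were added after seeing the data.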

Additional observations from a re-analysis of the deposited data

How the results depend on the processing

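With TMM, TMMwsp or RLE size factors, either other filter, the 10 most abundant genes excluded or a threshold of 0.1, edgeR called 1 apolipoprotein gene, Apoa4. It called 0 with the hepatocyte markers as scale and 0 to 3 with a library left out; DESeq2 called 3, and 1 to 4 with a library left out. Of the pathway genes, edgeR called 0, 1 at a threshold of 0.1 and 0 to 6 with a library left out, and DESeq2 8, or 4 to 16 with a library left out. Of all genes, edgeR called 25 (13 lower, 12 higher), DESeq2 686 (328 lower, 358 higher) and edgeR with the hepatocyte markers as scale 9 (1 lower, 8 higher). Without Apoe-/- replicate 5 edgeR called 254, without Mif-2-/-Apoe-/- replicate 2 it called 271, and without any other library 9 to 24. The cause was not tested.

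The replicate numbers that both genotypes share did not pair the libraries (correlations of deviations 0.14, -0.02, 0.00 and -0.04 for numbers 1 to 4). With the replicate block, on 8 libraries, edgeR called 5 apolipoprotein genes (Apoa2, Apoa4, Apoc2, Apoc3 and Apom), 10 pathway genes and 639 of all genes, and 0 of 9 ratios passed, since 4 pairs allow no p under 0.125. Of the ratios, 7 passed with each value added to the counts, and 0 to 7 with a library left out, where 4 against 4 libraries allow no p under 0.0286.

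With the hepatocyte markers as scale, the sign turned for Apoa1 (0.70), Apob (0.57), Apoc1 (0.27), Angptl8 (0.15), Gpihbp1 (0.052) and Abcg5 (1.03). Abcg5 was also positive by DESeq2 (0.10), with RLE (0.10), with filterByExpr (0.042) and without the top 10 genes (0.081). With a library left out, log2 fold changes ranged from -0.52 to 0.0095 for Apoa1 (-0.43 to 0.071 by DESeq2), -0.21 to 0.22 for Abcg5, -0.68 to 3.37 for Lipg, -0.044 to 0.41 for Mlxipl, -0.48 to 1.40 for Bud13 and -0.0035 to 0.50 for Tomm40. The lowest count of Apob in a library was 54.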
